A study of Mus musculus with 6 samples.

Results

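The genes of the cytosolic ribosomal proteins were examined in the brains of mice treated with LPS, compared with controls given vehicle. A gene belonged to this group where its symbol in the platform annotation had the form of a ribosomal protein (Rpl or Rps with a number, Rplp with its number, or Rpsa) and where a transcript cluster, the set of probes for a transcribed locus, named it alone. Kinases with Rps6k names and pseudogenes were not taken. This gave 60 genes of the 19938 genes named alone on the array, 38 of the large subunit by name and 22 of the small subunit, and each gene was read from its brightest cluster by the mean of all 6 arrays. Of 78 names of this form in the annotation, 17 occurred only in clusters that name other genes too, and 1, Rps4l, is a pseudogene in RefSeq. The 17 names were Rpl3, Rpl11, Rpl13a, Rpl15, Rpl17, Rpl22l1, Rpl31, Rpl32, Rpl35, Rpl35a, Rpl37, Rpl39, Rps16, Rps23, Rps24, Rps26 and Rps27. Some further genes of this form in RefSeq were not analysed here.

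The treated group was 3 male C57BL6 mice that received 1 intraperitoneal dose of LPS from Escherichia coli at 4 mg/kg, and the control group was 3 male C57BL6 mice that received PBS by the same route. The mice were 7 to 8 weeks old and were perfused with PBS before the brain was taken 48 hours after injection. Each brain was hybridized to 1 GeneChip Mouse Gene 1.0 ST array, and the values are the authors' log2 expression values after RMA. An exact two-sided permutation test of 3 mice against 3 cannot give a p below 0.1, and precision is limited by the few arrays.

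Ribosomal proteins bind ribosomal RNA to form the small subunit, which reads the messenger RNA, and the large subunit, which joins amino acids and carries the flexible stalk that recruits elongation factors. They are made in matching amounts by nearly all cells, and their messenger RNAs typically begin with a C and a run of pyrimidines, the TOP tract, through which the kinase mTOR and the protein LARP1 set how well they are translated. In brain they are abundant in neurons and glia and are also found in dendrites and axons. A few have paralogues that are made mainly in 1 tissue, such as Rpl10l and Rpl39l in testis and Rpl3l in striated muscle.

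No ribosomal protein gene passed the test in either direction, yet 53 of the 60 (88.3%) had a negative LPS minus PBS difference. This was so for 50.2% of all clusters and 54.5% of all genes named alone. Differences were tested with limma over all 35556 clusters, with Benjamini-Hochberg adjustment and a threshold of 0.05, and the smallest adjusted p among the 60 genes was 0.138. The same test called 0.0619% of all clusters lower and 0.652% higher. The median difference of the 60 genes was -0.18 on the log2 scale, or 0.882-fold, against a median of -0.00093 over all clusters. Differences ran from -0.78 for Rpl26 to 0.15 for Rpl32l, 17 genes lay at or below -0.3, and 1 gene, Rpl26, differed by 1.5-fold or more. At an unadjusted p under 0.05 from limma, 14 genes (23.3%) were on the lower side, where 6.58% of all clusters were, and none was on the higher side, where 7.69% were. By the methods' t-test, 7 were on the lower side at that unadjusted p and none passed after adjustment. The 95% confidence interval of the difference lay within 1.5-fold either way for 40 of the 60 genes, with a median half-width of 0.29.

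The start sites were read from RefSeq (GRCm38.p6), which held a window for 49 of the 60 genes. A TOP tract was counted where the annotated first base was C and it and the following bases made an unbroken run of at least 5 C or T on the transcribed strand. It was present in 10 of the 49 genes (20.4%) and in 2.67% of all protein-coding genes with a window. Tract lengths among the 10 genes were 5 to 10 bases. An annotated start can be off by some bases, and a missing match says only that the letters are not at that position. The median difference was -0.17 for the 10 genes with the tract and -0.20 for the 39 without, and this was not tested. The windows below are shown because the first ones carry the tract in genes with negative, small and positive differences, while the last, of Rpl26, has no tract at its annotated start. Each runs from 10 bases before the start to 20 bases from it, 5′ to 3′, with the tract in capitals.
Rps21 (chr2:180257369-180257398, plus strand): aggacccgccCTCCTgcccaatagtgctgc
Rps18 (chr17:33955646-33955675, minus strand): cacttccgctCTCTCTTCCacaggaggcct
Rps6 (chr4:86857348-86857377, minus strand): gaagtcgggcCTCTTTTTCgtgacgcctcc
Rpl28 (chr7:4792955-4792984, plus strand): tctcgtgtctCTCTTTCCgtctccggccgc
Rpl26 (chr11:68901556-68901585, plus strand): ggcaacttacagaaccggaagtcgcgtgta

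These windows belong to genes with differences of -0.43 for Rps21, -0.32 for Rps18, -0.08 for Rps6, 0.07 for Rpl28 and -0.78 for Rpl26. In the 300 bases from 250 before to 50 after the start, the core CCGGAAG of ETS family factors, searched on both strands, was found in 38.8% of the 49 genes and in 12.9% of all protein-coding genes. The letters ATGGCGGC, part of the motif of the factor YY1, were found on either strand in 8.16% and 3.50%, and TATAAA, the TATA box, in 12.2% and 14.8%. These are matches of letters and say nothing of binding in these brains. The 60 genes lie on 16 chromosomes, with a median gene length of 3310.5 bases.

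All 3 LPS arrays lay below all 3 PBS arrays for 19 of the 60 genes (31.7%), as they did for 10.3% of all clusters. For none of the 60 did the LPS arrays all lie above, which was so for 9.73% of all clusters. These counts rest unevenly on the 3 LPS mice. Taken as the median over the 60 genes of the distance in log2 expression from the PBS mean, LPS replicate 1 lay at -0.16, LPS replicate 2 at -0.34 and LPS replicate 3 at -0.05, against -0.03, 0.04 and -0.01 in PBS replicates 1, 2 and 3. LPS replicate 2 had the lowest of the 6 values for 48 genes (80.0%), as it did for 23.0% of all clusters, 37.5% of named genes with a mean log2 signal from 9 to 11 and 36.1% of those with 11 or more. LPS replicates 1 and 2 were both below every PBS array for 40 genes (66.7%), against 22.2% of all clusters and 34.0% and 33.6% of named genes in these signal ranges. LPS replicate 3 was the highest of the LPS arrays for 50 genes (83.3%), against 39.2% of all clusters and 62.8% and 60.3% in these ranges. It was within or above the range of the PBS arrays for 35 genes (58.3%), against 68.4% of all clusters and 78.3% and 77.7% in these ranges.

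**Figure D1:**
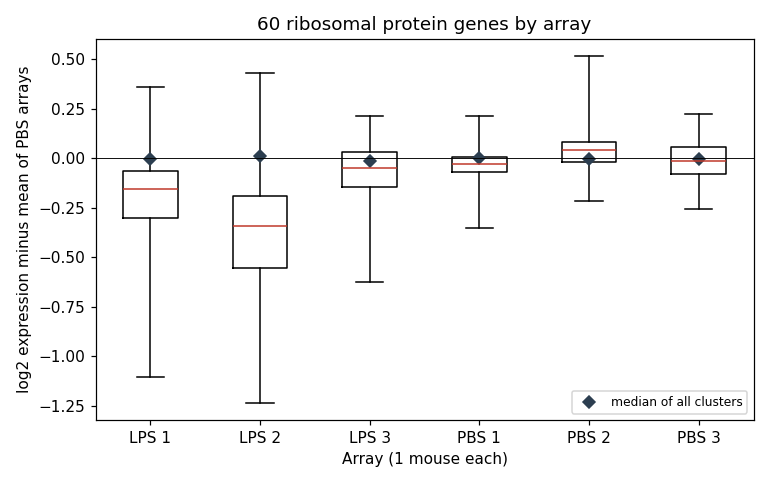
Distance of log2 expression from the PBS mean (vertical axis) for the 60 ribosomal protein genes on each array (horizontal axis, 1 mouse each). Boxes span the quartiles with the median in red, whiskers reach the lowest and highest gene, and diamonds are the medians of all clusters, which stay near 0 while the genes' medians lie at -0.16, -0.34 and -0.05 in LPS replicates 1, 2 and 3.

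The arrays themselves were not alike. LPS replicates 1 and 2 stood apart from the rest along the leading principal component (54.5% of the variance), and their array medians were 7.09 and 7.11, against 6.96 in LPS replicate 3 and 6.95 to 6.98 in the PBS arrays. With each array centred on its median, the median difference of the 60 genes was -0.27 and that of all clusters -0.09, and 58 genes were negative. After quantile normalization these medians were -0.18 and -0.03. Without LPS replicates 1 and 2, 40 of the 60 genes were negative, with a median of -0.05, against -0.01 over all clusters. Without LPS replicate 3 the median of the 60 genes was -0.27, against 0.0049 over all clusters. Without LPS replicate 3, 15 genes (25.0%) passed the limma test as lower, where 3.24% of all clusters did, and without any other array none passed. Among the 15 were Rpl26 (-1.17, adjusted p = 0.0359 from limma), Rps29 (-0.70, adjusted p = 0.0194), Rps21 (-0.59, adjusted p = 0.0148), Rpl34 (-0.51, adjusted p = 0.0337) and Rpsa (-0.38, adjusted p = 0.0495), and 10 of the 15 were of the small subunit. The part that the state of these arrays has in the differences was not tested.

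Among named genes of like signal the median difference was close to 0. It was -0.02 for the 4366 named genes with a mean log2 signal from 9 to 11 and -0.02 for the 1208 with a signal of 11 or more, against -0.23 for the 25 and -0.14 for the 20 ribosomal protein genes in the same ranges. Over the 60 genes the rank correlation of the difference with the signal was 0.15, a description across genes measured on the same 6 arrays.

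**Figure D2:**
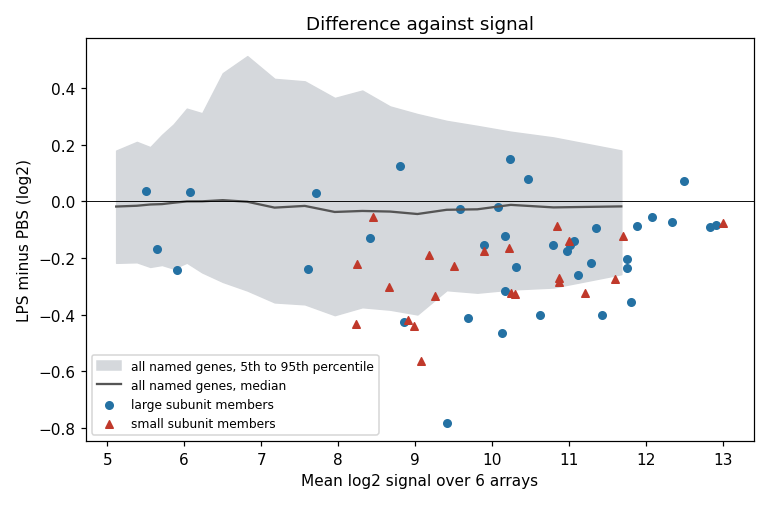
LPS minus PBS difference (log2, vertical axis) against the mean log2 signal over the 6 arrays (horizontal axis) for the large (circles) and small (triangles) subunit genes, over the median and the 5th to 95th percentile of all named genes in 20 bins of signal. Most of the 60 genes lie below the median line at every signal from 7 upwards, with Rpl26 lowest at -0.78.

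All 22 genes of the small subunit had negative differences, with a median of -0.27, and 31 of the 38 genes of the large subunit did, with a median of -0.15. The difference between the subunits was not tested. The small subunit genes ran from -0.57 for Rps29 to -0.05 for Rps3a1, and 9 of them had the LPS arrays all below the PBS arrays. LPS replicate 3 was the highest of the LPS arrays for all 22. Of the large subunit genes 10 had the LPS arrays all below the PBS arrays, and 28 had LPS replicate 3 as the highest of the LPS arrays. Of all clusters, 10.3% had the LPS arrays all below the PBS arrays and 39.2% had LPS replicate 3 as the highest LPS array. LPS replicate 3 was also the highest LPS array for 62.8% of named genes with signals from 9 to 11. The share was 60.3% for those with 11 or more.

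Rpl26, a large subunit protein that in human cells also promotes translation of the p53 messenger RNA, had the most negative difference. It lies at chr11:68901566-68904534 of GRCm38.p6. Its log2 expression was 8.70, 8.57 and 9.79 in LPS replicates 1, 2 and 3, against 9.45, 10.32 and 9.64 in PBS replicates 1, 2 and 3. LPS replicates 1 and 2 were below all PBS arrays, while LPS replicate 3 was above 2 of them. The difference was -0.78 (standard error 0.36, adjusted p = 0.385 from limma), and it was -1.17 without LPS replicate 3 and -0.52 without PBS replicate 2.

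Rps29, a zinc-binding protein of the small subunit that is mutated in some human patients with Diamond-Blackfan anaemia, lies at chr12:69157722-69159186. Its log2 expression was 8.80, 8.51 and 9.07 in the LPS mice, against 9.24, 9.41 and 9.43 in the PBS mice. The groups did not overlap, with a difference of -0.57 (standard error 0.15, adjusted p = 0.199 from limma). In the 4 clusters that name Rps29 alone the gene had differences from -0.61 to -0.52.

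Rpl34, of the large subunit, lies at chr3:130726827-130730398 and had the smallest p of the 60 genes. Its log2 expression was 9.99, 9.71 and 10 after LPS and 10.40, 10.30 and 10.38 after PBS. Here LPS replicate 3 was about as low as LPS replicate 1, and the difference was -0.46 (standard error 0.10, adjusted p = 0.138 from limma). Rpl36a, a large subunit protein encoded at chrX:134585654-134588062, showed the same order. It had 11.30, 11.09 and 11.32 in the LPS mice and 11.60, 11.69 and 11.63 in the PBS mice, a difference of -0.40 (standard error 0.09, adjusted p = 0.140 from limma).

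Rps9, of the small subunit, had 8.77, 8.38 and 9.15 after LPS and 9.26, 9.23 and 9.13 after PBS. The groups overlapped through LPS replicate 3, and the difference was -0.44 (adjusted p = 0.351 from limma). Rps21, a small protein of the same subunit, had 7.92, 7.81 and 8.33 after LPS and 8.38, 8.45 and 8.53 after PBS, a difference of -0.43 (adjusted p = 0.270 from limma). The LPS values of Rps21 lay below all PBS values, with LPS replicate 3 nearest to them.

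Rpl22, a large subunit protein needed for the development of T cells in mice, had 8.87, 8.35 and 8.72 after LPS and 9.11, 9.02 and 9.09 after PBS. The groups did not overlap, with a difference of -0.43 (adjusted p = 0.270 from limma). Its paralogue Rpl22l1 was named only in 2 shared clusters, which had differences of -0.17 and 0.02. Rps27l, a p53-induced paralogue of the small subunit protein Rps27, had 8.78, 8.38 and 8.94 after LPS and 9.08, 9.17 and 9.10 after PBS. Its groups did not overlap either, and the difference was -0.42 (adjusted p = 0.286 from limma). Both clusters that name Rps27 among other genes also had negative differences, of -0.35 and -0.31.

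None of the 3 stalk genes passed the test. Rplp0, which anchors the stalk to the large subunit, had 11.26, 11.16 and 11.50 after LPS and 11.38, 11.32 and 11.49 after PBS, a difference of -0.09 (adjusted p = 0.723 from limma). Rplp1, an acidic stalk protein, had 12.06, 12.01 and 12.10 after LPS and 12.19, 12.23 and 11.91 after PBS, a difference of -0.06 (adjusted p = 0.834 from limma). For both genes the groups overlapped. The second cluster of Rplp1 had a difference of -0.48, so that its clusters disagreed in size.

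Rplp2, the partner of Rplp1 in the stalk, lies at chr7:141447651-141451359. It had 9.10, 9.02 and 8.47 in the LPS mice and 8.65, 8.68 and 8.89 in the PBS mice, a difference of 0.13 (adjusted p = 0.774 from limma). LPS replicates 1 and 2 had the 2 highest values and LPS replicate 3 the lowest, the reverse of the order seen in most of the 60 genes. Its interval reached from -0.29 to 0.55.

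LPS replicate 3 was the lowest of the LPS arrays in 6 genes, which were picked out after their values were seen. These were Rplp2, Rpl12, Rpl14, Rpl27, Rpl30 and Rpl32l, all of the large subunit. The share of all clusters with LPS replicate 3 as the lowest LPS array is not given here. Unlike in Rplp2, LPS replicates 1 and 2 were not the 2 highest of the 6 arrays in Rpl12, Rpl14 and Rpl27. Rpl12, which sits at the base of the stalk, had 5.97, 5.94 and 5.44 after LPS and 6.24, 5.81 and 6.02 after PBS, a difference of -0.24 (adjusted p = 0.555 from limma). Its signal was near the array means of 5.70 to 5.85 after LPS and 5.76 to 5.80 after PBS of 1178 genes for olfactory and vomeronasal receptors, most of them silent in brain. Rpl14 had 7.77, 7.60 and 7.10 after LPS and 7.73, 7.90 and 7.55 after PBS, a difference of -0.24 (adjusted p = 0.579 from limma). Rpl30, which in yeast binds its own transcript and limits its production, had 8.03, 7.73 and 7.41 after LPS and 7.70, 7.70 and 7.68 after PBS. The 3 PBS values of Rpl30 were nearly equal, and the LPS values lay on both sides of them, with a difference of 0.03 (adjusted p = 0.944 from limma).

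Positive differences were seen for 7 genes, and in all of them the groups overlapped. Rpl32l, a gene of 592 bases at chr10:20208439-20209030, had 10.31, 10.47 and 10.16 after LPS and 10.16, 10.26 and 10.08 after PBS, a difference of 0.15 (adjusted p = 0.532 from limma). The 1 cluster that names Rpl32, among other genes, had a difference of the other sign, -0.25. Rpl27, of the large subunit, had 10.40, 10.86 and 10.27 after LPS and 10.42, 10.48 and 10.39 after PBS. Its difference of 0.08 (adjusted p = 0.839 from limma) came with a single high array, LPS replicate 2, and 3 of the 4 clusters that name it alone had negative differences, down to -0.26. Rpl28, of the large subunit, had 12.56, 12.44 and 12.59 after LPS and 12.44, 12.57 and 12.37 after PBS. Its difference was 0.07 (adjusted p = 0.736 from limma), and it was positive in all 5 of its clusters.

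The tissue-restricted paralogues gave signals close to those of the receptor genes that are silent in brain, and at such levels a missing call says little. Rpl3l had 5.40, 5.53 and 5.63 after LPS and 5.45, 5.33 and 5.67 after PBS, and Rpl10l had 5.93, 6.09 and 6.24 after LPS and 5.98, 6.05 and 6.12 after PBS. Neither pair of groups was apart, with differences of 0.04 and 0.03 (adjusted p = 0.904 and 0.899 from limma). Rpl39l had 5.57, 5.52 and 5.59 after LPS and 5.79, 5.73 and 5.66 after PBS, a difference of -0.17 with the groups apart (adjusted p = 0.372 from limma). Rpl10, the ubiquitous partner of Rpl10l and a protein that completes the maturation of the large subunit, had 12.31, 12.17 and 12.42 after LPS and 12.37, 12.44 and 12.31 after PBS, a difference of -0.07 (adjusted p = 0.745 from limma). Rps4x, the X-linked small subunit protein, had 10.85, 10.59 and 10.98 after LPS and 10.80, 10.99 and 10.88 after PBS, a difference of -0.09 (adjusted p = 0.769 from limma). For both Rpl10 and Rps4x the brightest cluster had the smallest difference. The 6 clusters of Rpl10 ran from -0.32 to -0.07 and the 5 of Rps4x from -0.28 to -0.09. The pseudogene Rps4l, which is not among the 60 genes, had a difference of -0.27 (adjusted p = 0.320 from limma).

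Rps6, whose phosphorylation is widely used as a readout of mTOR activity, had the brightest cluster of the 60 genes. It had 12.98, 12.89 and 13.03 after LPS and 13.01, 13.09 and 13.03 after PBS, a difference of -0.08 (95% confidence interval -0.26 to 0.10, adjusted p = 0.674 from limma). Rpl5, which binds Mdm2 when ribosome assembly is disturbed, had 10.95, 10.85 and 11.03 after LPS and 11.06, 11.06 and 11.16 after PBS. The groups of Rpl5 were just apart, with a difference of -0.15 (95% confidence interval -0.35 to 0.04, adjusted p = 0.431 from limma). Over their clusters the differences ran from -0.23 to -0.05 for Rps6 and from -0.35 to -0.15 for Rpl5. Rpsa, a small subunit protein also known as the laminin receptor, had 9.35, 9.15 and 9.70 after LPS and 9.61, 9.61 and 9.66 after PBS. LPS replicate 3 was the highest of the 6 arrays and LPS replicate 2 the lowest, and the difference was -0.23 (adjusted p = 0.493 from limma).

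**Figure D3:**
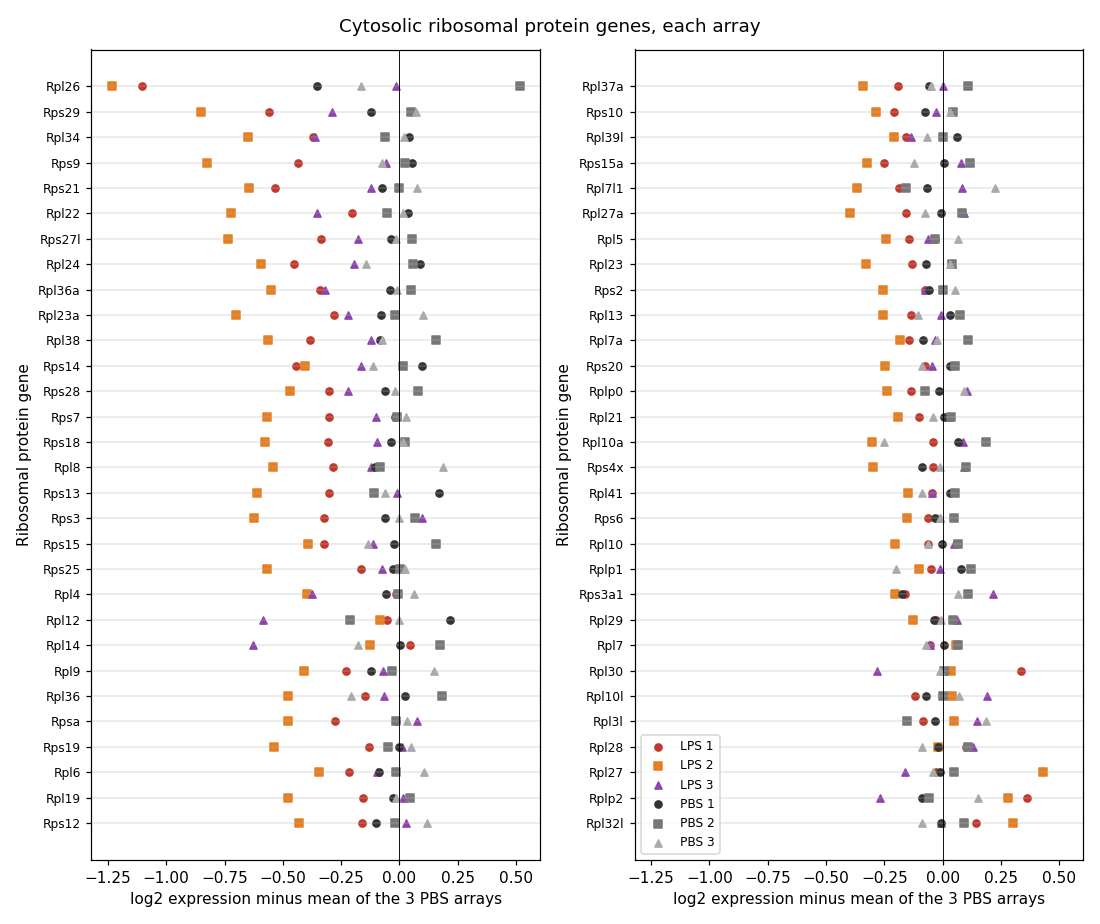
Distance of log2 expression from the mean of the 3 PBS arrays (horizontal axis) for each of the 60 genes (vertical axis, ordered from the most negative to the most positive LPS minus PBS difference). Each symbol is 1 mouse, with LPS in colour and PBS in grey; the orange squares of LPS replicate 2 are the lowest value for 48 genes, and the purple triangles of LPS replicate 3 lie within or above the PBS range for 35 genes.

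Many ribosomal protein genes have processed copies in the genome, and 38 of the 60 genes were named alone by 2 or more clusters, up to 14 for Rps12. Signals from a gene and its copies cannot be told apart on these arrays where the probes match both. Over all 215 clusters that name 1 of the 60 genes alone, 204 (94.9%) had a negative difference, against 50.2% of all clusters. Their median was -0.21, and none passed the limma test. All clusters were negative for 36 of the 38 genes with 2 or more, the other two being Rpl27 and Rpl28. The 13 clusters of Rpl23a, of the large subunit, ran from -0.40 to -0.20, and the 14 clusters of Rps12, of the small subunit, from -0.35 to -0.14. The median difference was -0.17 for the 22 genes with 1 cluster and -0.20 for the 38 genes with several.

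A further 237 clusters name a ribosomal protein gene of this form together with other genes, and they were given no gene's name. Of these 222 (93.7%) had a negative difference, against 50.2% of all clusters, and the median was -0.15. The limma test called 1 of the 237, as lower, where it called 0.0619% of all clusters lower and 0.652% higher. That cluster, singled out for its call, names Rpl37 and its retrotransposed copy Rpl37rt. Its log2 expression was 6.91, 6.82 and 7.60 in LPS replicates 1, 2 and 3, against 8.54, 8.78 and 8.68 in PBS replicates 1, 2 and 3. Every LPS array was below every PBS array, and the cluster fell by 1.55 on the log2 scale (standard error 0.21, adjusted p = 0.0276 from limma). The call held without LPS replicate 3 (adjusted p = 0.00249 from limma) but was lost when any of the remaining arrays was left out (adjusted p from 0.0944 to 0.164). The other cluster that names the same pair had 9.65, 8.84 and 9.91 after LPS and 9.86, 9.80 and 9.62 after PBS. In that cluster the groups overlapped and the difference was -0.30 (adjusted p = 0.633 from limma), so that the clusters of this pair disagreed in size.

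Other genes of the ribosome and of translation were read from lists. Mitochondrial ribosomal proteins, which build the separate ribosome of mitochondria, had negative differences in 68 of 76 genes (89.5%), with a median of -0.23. The share over all named genes was 54.5%. None of the 76 genes passed the limma test, and 25 were on the lower side and none on the higher at an unadjusted p under 0.05. Of all clusters 6.58% were on the lower side and 7.69% on the higher. Mrpl57 had 8.94, 8.62 and 9.0 after LPS and 9.51, 9.51 and 9.40 after PBS, a difference of -0.62 with the groups apart (adjusted p = 0.0985 from limma). Mrpl54 and Mrps34 had differences of -0.69 and -0.44 (adjusted p = 0.113 and 0.125 from limma). LPS replicate 3 was the highest of the LPS arrays for 60 of the 76 genes (78.9%), as it was for 50 of the 60 cytosolic ones. That held for 39.2% of all clusters, and for 57.1% and 62.8% of named genes with signals from 7 to 9 and from 9 to 11. The difference between these lists was not tested.

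Of 42 measured cytosolic translation factors none passed, 28 (66.7%) had negative differences and the median was -0.06. Negative differences were found for 54.5% of all named genes. Eef1b2, an exchange factor of the elongation factor that delivers transfer RNA, had 9.34, 9.12 and 9.31 after LPS and 9.63, 9.60 and 9.71 after PBS, a difference of -0.39 with the groups apart (adjusted p = 0.152 from limma). Eif2b2 and Eif3l, which encode subunits of initiation factors, had differences of -0.47 and -0.30 (adjusted p = 0.220 and 0.260 from limma). A single one of 4 further components of the cytosolic ribosome was named alone, Fau, which encodes a small subunit protein fused to a ubiquitin-like part. It had 11.28, 11.07 and 11.36 after LPS and 11.41, 11.36 and 11.38 after PBS, a difference of -0.15 (adjusted p = 0.504 from limma).

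Of 42 measured genes listed for ribosome biogenesis none passed. Among them 29 (69.0%) had negative differences, against 54.5% of all named genes, and the median was -0.06. Bop1, which acts in processing of large subunit RNA, had a difference of -0.27 (adjusted p = 0.260 from limma). Rrp9, which binds a small nucleolar RNA, had -0.20 (adjusted p = 0.289 from limma). Drg1 was on the list, but in mouse this symbol names a GTP-binding protein and not the yeast biogenesis factor of that name. It had -0.41 (adjusted p = 0.279 from limma). Among 19 measured genes listed as regulators of mTOR and of TOP messenger RNAs none passed, and the median was -0.05. One of them, Pdk1, in mouse encodes a kinase of pyruvate dehydrogenase. Akt1s1, an inhibitory partner of mTOR, had a difference of -0.50, Tia1, which binds TOP messenger RNAs under stress, of 0.56, and the kinase gene Akt1 of -0.20 (adjusted p = 0.270, 0.320 and 0.414 from limma). The groups overlapped for Tia1 and Akt1.

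Of 21 measured genes of ribosome stress and of the integrated stress response none passed. Among them 12 (57.1%) had negative differences, near the 54.5% of all named genes, and the median was -0.01. Eif2ak2, the interferon-inducible kinase PKR that halts initiation, had 7.11, 7.05 and 7.56 after LPS and 6.43, 6.20 and 6.70 after PBS. All LPS values were above all PBS values, with a difference of 0.80 (standard error 0.18, adjusted p = 0.148 from limma). Ppp1r15b, which helps to reverse that halt, and Ascc3, which takes part in clearing collided ribosomes, had differences of 0.34 and 0.33 with the groups apart (adjusted p = 0.187 and 0.199 from limma).

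**Figure D4:**
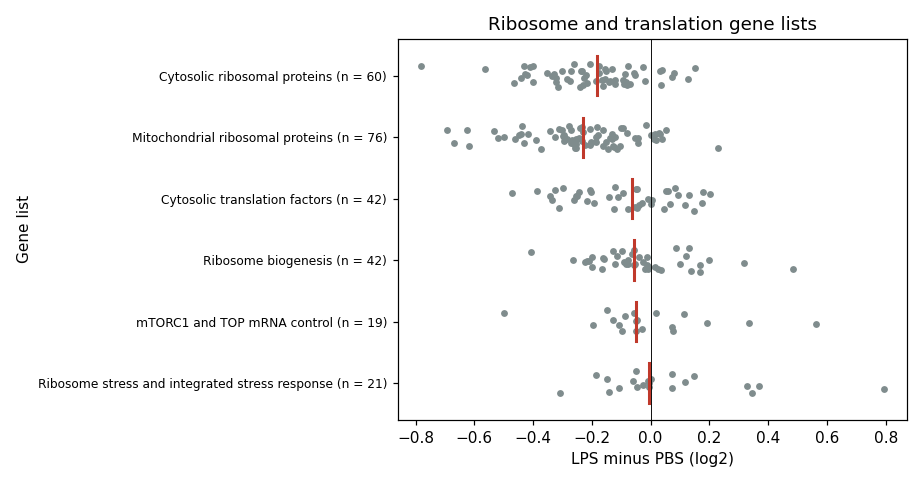
LPS minus PBS difference (log2, horizontal axis) of each gene (points, spread vertically for sight only) in 6 lists (vertical axis), with the list's median as a red bar. The medians are -0.18 for cytosolic and -0.23 for mitochondrial ribosomal proteins, and lie between -0.06 and -0.01 for the other lists.

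Markers of neurons, astrocytes and oligodendrocytes had mean log2 signals from 10.4 to 11.7 on the arrays, well above the receptor genes. Of 6 endothelial genes, such as Cldn5 and Pecam1, all 6 passed as higher, where 0.652% of all clusters did. Their summed log2 signals were 52.0 to 52.7 in LPS arrays and 45.8 to 46.3 in PBS arrays. Of 7 genes of microglia and macrophages Itgam passed as higher, with sums of 57.8 to 59.9 in LPS arrays and 55.0 to 56.4 in PBS arrays. None of 7 neuronal genes passed, with sums of 81.5 to 81.9 in LPS arrays and 81.8 to 82.1 in PBS arrays, nor did any of 6 astrocyte, 5 oligodendrocyte or 5 choroid plexus genes, or of 8 genes of T, NK and B cells. Of 7 genes of neutrophils and monocytes Csf3r and Fn1 passed as higher and 5 did not pass. Those 5 had differences of 0.01 for S100a8, -0.14 for S100a9, 0.17 for Ly6g, -0.03 for Mpo and -0.29 for Ccr2. In the PBS arrays Fn1 had a mean of 9.57, against 5.44 to 6.13 for the other genes of this list. The sums of the 7 genes, with Csf3r and Fn1 among them, were 45.4 to 46.0 in LPS arrays and 44.1 to 45.0 in PBS arrays. The choroid plexus genes, such as Ttr and Kl, had sums of 44.6 to 48.4 in LPS arrays and 46.3 to 47.5 in PBS arrays. Their median distance from the PBS mean was -0.34, -0.50 and 0.35 in LPS replicates 1, 2 and 3, and in all 5 of them LPS replicate 2 was the lowest of the 6 arrays and LPS replicate 3 the highest of the LPS arrays. The oligodendrocyte sums were 56.1 to 56.5 in LPS arrays and 56.8 to 57.5 in PBS arrays. Astrocyte sums were 63.3 to 64.4 in LPS arrays and 62.3 to 63.4 in PBS arrays. For 3 of the 6 astrocyte genes all LPS arrays lay above all PBS arrays, as they did for 9.73% of all clusters. Gfap was 1 of the 3, with a difference of 0.56 (adjusted p = 0.130 from limma). A negative difference was seen for 1 of the 6, Aldh1l1 (-0.18). The part of these shifts in the differences of the ribosomal protein genes was not tested, and in whole brain fewer cells of a type and less RNA per cell cannot be told apart.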

How the data were processed

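Whole brain RNA of 3 LPS-treated and 3 vehicle-treated mice was measured on 1 array each. The authors deposited log2 expression values per transcript cluster, made by RMA, which corrects background, normalizes between arrays and summarises probes. Their methods name RMA adjusted for GC content (Partek) and RMA 16 (GeneSpring), and the deposited values come from the Partek route. Scanner files were not used here, and signal over background per probe is unknown.

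Clusters were named from the platform annotation, in which 21789 of 35556 name 1 gene. Gene locations and biotypes are those of RefSeq on GRCm38.p6. For LPS minus PBS, limma (version 3.58.1, under R 4.3.3) was fitted to all clusters with lmFit and eBayes, and its two-sided p-values were adjusted by Benjamini-Hochberg. The procedure was tested on simulated data. The genes described are the 6 with the most negative and the 6 with the most positive differences, the brightest and the dimmest, paralogues, stalk genes, Rpsa, Rps6 and Rpl5, and up to 3 genes of each list with the smallest p; Rpl12, Rpl14, Rpl23a, Rpl30, Rps3a1, Rps12, Rps18 and the Rpl37 clusters were added after their values were seen. The ribosomal protein genes, the lists and the tests were chosen with earlier results of these data known.

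Alternatives were the methods' t-test, eBayes with an intensity trend, array weights, centring on the array median, quantile normalization, a filter on the 40% of clusters with the lowest mean, the replicate number as a block, an adjusted threshold of 0.1, the mean of a gene's clusters, leaving out every array singly, 32 added to the linear values, and leaving out LPS replicates 1 and 2 together, where the remaining LPS array is taken to vary as the PBS arrays do.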

Additional observations from a re-analysis of the deposited data

How the results depend on the processing

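No ribosomal protein gene passed the limma test, or the methods' t-test, under any alternative except array weights and leaving out LPS replicate 3. With array weights, which gave LPS replicate 1 a weight of 8.69 and LPS replicate 3 one of 0.253, 17 genes were lower and 1, Rplp2, was higher, and 3572 of all clusters were lower and 4751 higher. Leaving out 1 array at a time gave 0 to 15 lower genes and no higher ones, the 15 being without LPS replicate 3, and all 15 were also among the 17. The median difference of the 60 genes stayed negative under all alternatives, from -0.27 to -0.05. The replicate numbers do not mark shared animals, and the correlations of same-numbered arrays' deviations were 0.09, -0.05 and 0.10. With the replicate block 0 genes passed, with 13 on the lower side at an unadjusted p under 0.05.

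Of the genes described, some with small differences turned sign. With array weights Rpl10l had -0.10, Rpl27 -0.0061, Rpl3l -0.063 and Rpl14 0.011. With arrays centred on their medians Rpl10l had -0.056, Rpl27 -0.011, Rpl28 -0.018, Rpl30 -0.060 and Rpl3l -0.054, and after quantile normalization Rpl10l had -0.0034 and Rpl30 -0.026. The mean of its clusters gave Rpl27 -0.14. With LPS replicates 1 and 2 both left out Rpl10 had 0.043, Rpl27 -0.16, Rpl30 -0.28, Rplp0 0.10, Rplp2 -0.27, Rps3a1 0.21, Rps4x 0.086, Rps12 0.033 and Rpsa 0.074. With 1 array left out in turn Rpl10l ran from -0.041 to 0.11, Rpl27 from -0.092 to 0.20, Rpl3l from -0.038 to 0.13, Rpl30 from -0.12 to 0.19, Rplp1 from -0.16 to 0.0035, Rps3a1 from -0.19 to 0.022 and Rps4x from -0.17 to 0.023. With 3 arrays per group, small differences can be missed, and so can larger ones. A gene's interval does not give the smallest difference that the adjusted test would detect. The intervals are not adjusted for the number of clusters tested. That of Rpl34, -0.71 to -0.22, held negative values only, yet the gene did not pass (adjusted p = 0.138 from limma).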
